A study of Aspergillus luchuensis with 6 samples.

Results

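The start sites described here lie near the ends of the longer genome scaffolds of Aspergillus luchuensis mut. kawachii, the white koji fungus. The assay was CAGE, cap analysis of gene expression, in which the capped 5′ ends of RNA molecules are read as short tags. A tag's position marks where transcription began, and tags counted there give the level of capped RNA from that start. Neighbouring positions of 1 strand, each with 0.1 CPM or more over the pooled libraries (CPM being counts per 1 M tags), formed a tag cluster where gaps were 20 bp or less. Clusters under 1 CPM were dropped. Scaffolds whose names start with DF and whose largest listed position was at least 300000 were taken, 35 in all with 70 ends. A cluster belonged to the group when its dominant position, the one with the most tags, lay within 40 kb of position 0 (the first end) or of the largest listed position (the last end). This gave 1394 clusters of 21824 in the series, and the other 18083 clusters of the same scaffolds served as background. Membership rested on position and on the level pooled over both strains, and not on a difference between strains. A cluster could thus pass the limit on level through the tags of 1 strain alone.

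The libraries came from mycelia of a laeA disruptant (3 libraries, strain label sirD) and of a control strain (3 libraries, strain label ctrl345). Neither the meaning of sirD nor the parentage of the strains is given in the sources used here. Both strains were grown with shaking at 30 °C, 36 h in M medium and then 12 h in CAP medium. Nothing in the labels says that the libraries of a strain came from separate cultures, so p-values measure the spread between these libraries, which may be technical. Tags of the laeA gene were not analysed here, because the table pairs no position with a gene.

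LaeA is a putative methyltransferase that acts in the nucleus with velvet proteins, and in Aspergillus species it is known for controlling many secondary metabolite pathways at once. Genes of a secondary metabolite pathway often sit side by side, and in Aspergillus fumigatus and related species many such clusters lie toward chromosome ends, where chromatin can silence genes. A scaffold end is a break in the assembly and need not be a chromosome end. Which of the 70 ends lie at a telomere was not tested, and no cluster is given a gene name.

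Library totals were 14.8 to 17.3 M tags in the disruptant and 18.0 to 19.3 M in the control. The share of a library taken by 1 tag-rich scaffold outside the chosen 35 was 7.49% to 17.3% in the disruptant and 9.42% to 17.2% in the control. No pair of libraries of a strain was a copy of another, since the chi-square per degree of freedom over the clusters near ends was 10.6 to 44.1 in the disruptant and 21.0 to 53.6 in the control. Positions are counted from 1 here. In the table, which counts from 0, the smallest listed position was 30 on the minus strand and 0 on the plus strand, so the strands may follow different conventions.

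Start sites were sparser near the ends than along the rest of the scaffolds. There were 4.98 clusters per 10 kb within 40 kb of an end and 6.67 per 10 kb elsewhere. The outermost 5 kb held 3.8 per 10 kb, and the stretch from 40 to 80 kb held 6.28. Per 40 kb end, the number of clusters ran from 1 to 61 with a median of 19, while inner stretches of 40 kb had a median of 26. As many as 18 of the 70 ends (25.7%) held at most 10 clusters, against 10.6% of the inner stretches. These are counts over pooled libraries, and no test of the difference was made.

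The clusters themselves had about the same median level and shape as those elsewhere, with a higher upper quartile of level. Their median level was 4.65 CPM against 4.31 CPM in the rest. The upper quartile was 22.5 CPM near ends and 15.3 CPM elsewhere. At least 100 CPM was reached by 6.53% of the clusters near ends and 5.25% of the others. These differences were not tested. The stretch holding the 10th to 90th percentile of tags had a median of 28 bp in both sets. The dominant position held a median of 26.8% of a cluster's tags near ends and 26.4% elsewhere. Tags near ends summed to 18.0 CPM per kb, against 21.6 CPM per kb elsewhere. Transcription ran toward the end at 47.7% of the clusters near ends, and at 48.8% of the others it ran toward the nearer end.

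The share of tags near ends was 7.67%, 8.09% and 7.65% in disruptant libraries 1 to 3, against 8.27%, 7.73% and 8.01% in control libraries 1 to 3. These are shares of the tags in clusters of the 35 scaffolds. The means were 7.80% ± 0.246 in the disruptant and 8.01% ± 0.271 in the control (SD, n = 3 each). The libraries of the strains overlapped, and the means differed by less than 1 SD of either strain. Within 20 kb of an end the order of the means turned round, with 4.27% in the disruptant and 4.14% in the control.

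Of the 1394 clusters, 1393 had enough tags to be compared, and 102 (7.32%) differed between the strains (edgeR's quasi-likelihood test with p adjusted by Benjamini-Hochberg over all 21803 clusters tested, called under 0.05). In the disruptant, 42 of the 102 were higher and 60 lower. The share called was 7.41% among the other clusters of the same scaffolds and 8.11% over the whole series. In the direction of a rise it was 3.02% near ends, against 3.69% elsewhere and 4.1% over the series. For a fall it was 4.31% near ends, against 3.72% elsewhere and 4% over the series. The share near ends was thus close to the background. The libraries of the strains did not overlap at 380 clusters near ends (27.3%), against 29.3% over the series. With library size alone as the scaling, 53 were called higher and 49 lower, and 90 of those calls were among the 102.

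The count of 102 depended on the libraries. It was 54 without disruptant replicate 2, 39 without disruptant replicate 3, 49 without control replicate 1 and 50 without control replicate 2. All 102 kept their direction in each of the 6 fits that left out 1 library, and 32 were called in every one of them, 7 higher and 25 lower. Over those fits the rises numbered 10 to 50 and the falls 29 to 92. In these bulk cultures, less RNA from a start site in each hypha and fewer hyphae using it cannot be told apart. Tags count the RNA present, so a change in transcription and a change in RNA turnover cannot be told apart either.

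**Figure D1:**
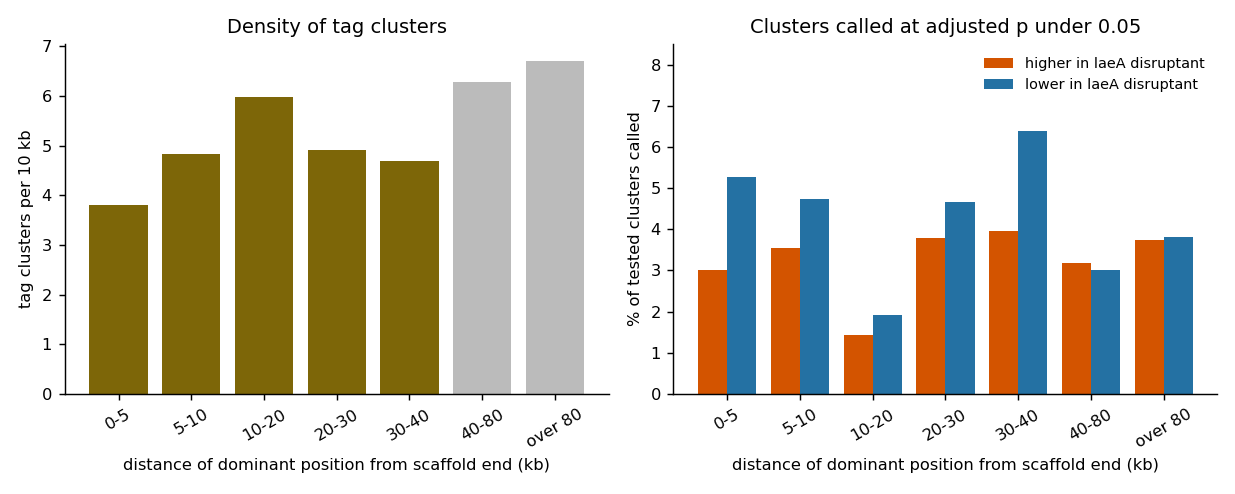
Left, tag clusters per 10 kb by distance from the scaffold end, with the bands near ends in brown and the rest in grey. Right, percent of tested clusters called higher and called lower in the laeA disruptant than in the control. Density was lowest in the outermost 5 kb (3.8 per 10 kb), and the share called was lowest at 10 to 20 kb.

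Calls did not gather at the outermost positions. The share called was 8.27% within 5 kb of an end, 8.28% from 5 to 10 kb, 3.34% from 10 to 20 kb, 8.45% from 20 to 30 kb and 10.3% from 30 to 40 kb. It was 6.2% from 40 to 80 kb and 7.54% farther in. The band from 10 to 20 kb had the most clusters per 10 kb of those near ends (5.99) and the lowest share called. Bands share libraries and neighbours, and their differences were not tested.

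Called clusters were about as strong as the rest and slightly narrower. Their median level over all libraries was 3.90 CPM for the 42 that rose and 4.09 CPM for the 60 that fell, against 4.72 CPM for those not called. The median width was 22.5 bp for those that rose, 20 bp for those that fell and 29 bp for those not called. Called clusters elsewhere on the scaffolds were narrow too, with 23 bp for rises and 22 bp for falls. Rises near ends had a median absolute log2 fold change of 1.38 and falls one of 2.03. Of the 91 clusters near ends with at least 100 CPM, 6 rose and 3 fell. Of the 950 such clusters elsewhere on the scaffolds, 26 rose and 33 fell, and the difference was not tested. Some calls lay close together: with neighbours within 500 bp on a strand counted once, the 102 became 82, of which 35 rose and 47 fell.

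**Figure D2:**
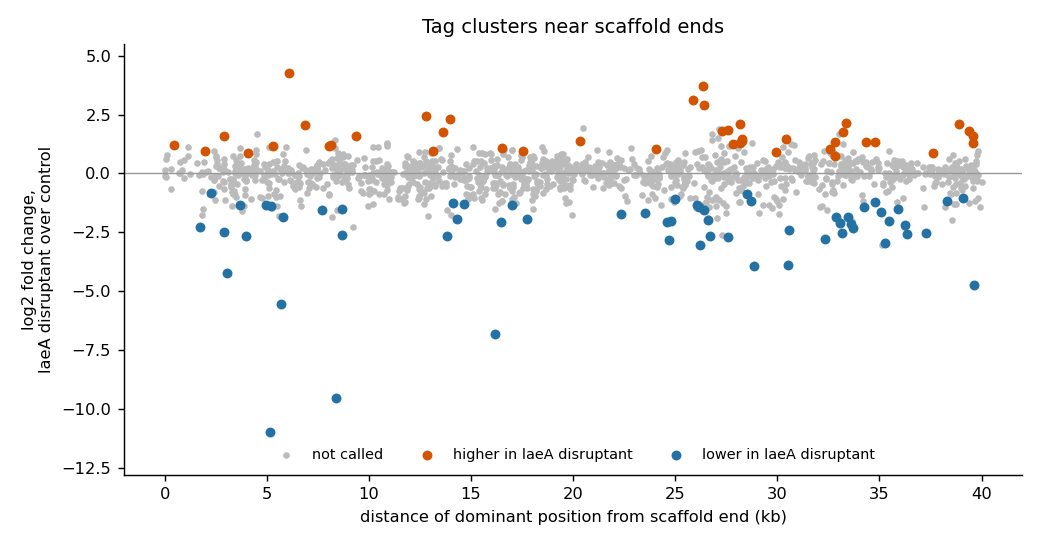
Each point is 1 of the 1393 tested clusters near scaffold ends, placed by distance from the end in kb and by log2 fold change, laeA disruptant over control. Grey points were not called, and the 42 rises and 60 falls are spread over the 40 kb. The deepest falls lie at 5.17 and 8.38 kb.

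Most of the largest rises by the naming rule were weak start sites in the control. The largest was on the plus strand of DF126447.1, positions 6067 to 6107, 6.08 kb from the first end. It had 137, 166 and 106 tags in the disruptant libraries, against 7, 9 and 8 tags in the control libraries. Every disruptant library was thus far above every control library. The mean was 8.98 ± 2.27 CPM in the disruptant and 0.462 ± 0.062 CPM in the control (SD, n = 3 each), a ratio of 19.4 (edgeR adjusted p = 0.000323; log2 fold change 4.26, SE 0.33).

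Next came the plus strand of DF126477.1, positions 389545 to 389560, 26.3 kb from the last end. The tags numbered 86, 114 and 64 in the disruptant libraries and 10, 8 and 5 in the control libraries, and the ratio of means was 13.3 (edgeR adjusted p = 0.000973; log2 fold change 3.70, SE 0.39). The libraries of the strains did not overlap, as the rule required.

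A stronger site on the minus strand of DF126456.1, positions 1009652 to 1009722, lay 12.8 kb from the last end. It had 47.0, 57.1 and 61.2 CPM in the disruptant libraries, against 9.12, 10.7 and 10.6 CPM in the control libraries. The groups were tight and far apart, 5.43-fold higher in the disruptant (edgeR adjusted p = 0.000381; log2 fold change 2.44 with SE 0.20). The remaining rises by the rule were on DF126450.1 (plus strand, positions 1539693 to 1539744, log2 fold change 2.31), on DF126465.1 (described with its end) and on DF126460.1. The last of these, on the plus strand at positions 13589 to 13618, had 5.73 ± 1.88 CPM in the disruptant and 1.67 ± 0.36 CPM in the control (SD, n = 3 each; log2 fold change 1.77, edgeR adjusted p = 0.0145). Without control replicate 1 its adjusted p was 0.0664.

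Among the 6 falls that the rule named, the first 3 given here held at most 2 tags in any disruptant library. On the plus strand of DF126454.1, positions 1123400 to 1123459 lay 5.17 kb from the last end. They held 0 tags in each disruptant library, against 276, 282 and 251 tags in the control libraries. The control libraries were close to each other, at 15.5 ± 0.37 CPM (SD, n = 3). Set against a floor of 3 tags in each library, the disruptant was at least 78.4-fold lower (edgeR adjusted p = 0.000174).

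Positions 1120204 to 1120223 of the same strand, 8.38 kb from that end, held 1, 1 and 0 tags in the disruptant libraries and 591, 930 and 476 tags in the control libraries. The ratio of means was 907, with a 95% counting interval of 241 to 7199 from the 2 disruptant tags (edgeR adjusted p = 3.53e-05). Counting intervals and floors cover only the counting error of the lower group and leave out the spread between libraries. Tags also carry no molecular identifiers.

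On DF126479.1, plus strand, positions 16148 to 16171, the disruptant libraries held 0, 1 and 2 tags and the control libraries 40, 350 and 55. Control replicate 2 was high above the other 2 control libraries, and no disruptant library came near any of them. The ratio of means was 114, with a 95% counting interval of 43.1 to 611 (edgeR adjusted p = 0.00946). The log2 fold change was -6.81, against -6.16 without disruptant replicate 1, -7.74 without disruptant replicate 3 and -5.28 without control replicate 2. Without disruptant replicate 3 its adjusted p was 0.0514.

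On DF126457.1, minus strand, positions 952743 to 952769, 3.04 kb from the last end, there were 20, 12 and 15 tags in the disruptant libraries and 561, 64 and 352 in the control libraries. The control libraries differed widely, but the lowest of them was above every disruptant library. The level was 18.8-fold lower in the disruptant (log2 fold change -4.22, SE 0.73; edgeR adjusted p = 0.00979), with an adjusted p of 0.0623 without disruptant replicate 3. The other 2 falls by the rule were on DF126449.1 and are given with its first end.

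**Figure D3:**
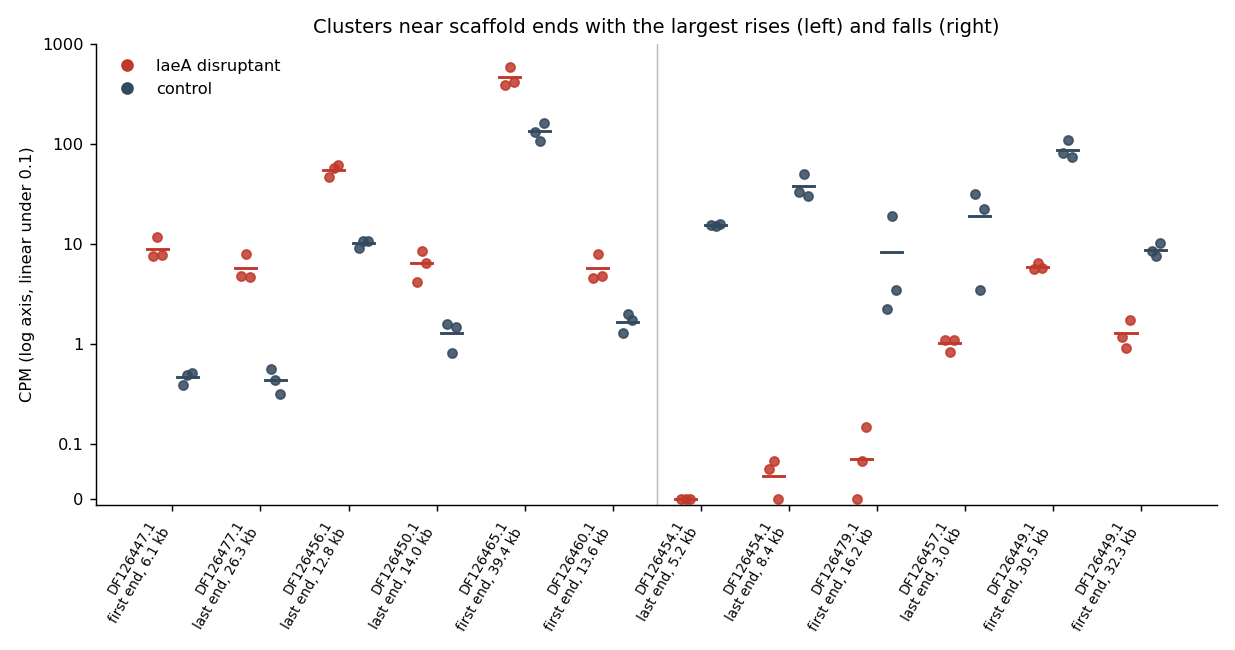
CPM of each library (points) and group means (bars) for the 6 clusters near scaffold ends with the largest rises, left of the line, and the 6 with the largest falls, right of it, with the scaffold, the end and the distance from it below. The axis is logarithmic above 0.1 CPM and linear under it. That no laeA disruptant library overlaps a control library was a condition for choosing the 12. Of the falls, 3 reach 0 tags in at least 1 disruptant library.

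The 6 strongest start sites near ends held 20.1% of all tags near ends. Of these 6, 1 was called, and of all clusters near ends 7.32% were called. So few sites cannot show whether strong sites were called more or less often than others. The strongest, on the plus strand of DF126454.1 at positions 12288 to 12405, had 2500 ± 42.1 CPM in the disruptant and 2355 ± 410 CPM in the control (SD, n = 3 each; log2 fold change 0.09, edgeR adjusted p = 0.839). Opposite it on the minus strand, positions 11877 to 11955 had 1137 ± 153 CPM in the disruptant and 1263 ± 291 CPM in the control (log2 fold change -0.15, edgeR adjusted p = 0.733). A p that misses the threshold does not show that these levels were equal.

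Among the others, positions 864717 to 864804 on the minus strand of DF126460.1 had 1385 ± 303 CPM in the disruptant and 2492 ± 657 CPM in the control (edgeR adjusted p = 0.1). On the same strand, just downstream of it, 5 weaker clusters fell, with log2 fold changes of -2.33 to -1.84. The strong cluster held 93.7% of the tags in clusters at the last end of DF126460.1. The summed tags of that end were called lower in the disruptant (log2 fold change -0.87, SE 0.21; edgeR adjusted p = 0.036). On the plus strand of DF126447.1, positions 29228 to 29710 had 1226, 349 and 1097 CPM in the disruptant libraries and 2899, 2624 and 1187 CPM in the control libraries. Those libraries overlapped and the cluster was not called (edgeR adjusted p = 0.136). DESeq2 called both of these, with adjusted p of 0.0328 on DF126460.1 and 0.0301 on DF126447.1. On the minus strand of DF126479.1, positions 13112 to 13338 had a log2 fold change of -0.45 (edgeR adjusted p = 0.395).

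The clusters closest to an end held tags in both strains. The largest listed position need not be the true end of a scaffold. Whether tags at the edge of a scaffold mark true start sites was not tested. On the minus strand of DF126468.1, the dominant position of positions 572340 to 572362 was the largest listed position of the scaffold. It had 12.2 ± 2.71 CPM in the disruptant and 13.0 ± 3.08 CPM in the control (SD, n = 3 each). Beside it, positions 572241 to 572285 had 6.28 ± 0.65 CPM in the disruptant and 7.02 ± 1.58 CPM in the control. Position 1 of DF126472.1 on the plus strand had 24, 15 and 15 tags in the disruptant libraries and 15, 25 and 15 in the control libraries. On DF126453.1, positions 35 to 69 of the plus strand had 2.08 ± 0.42 CPM in the disruptant and 1.37 ± 0.14 CPM in the control. None of these 4 was called (edgeR adjusted p of 0.27 to 0.863). The nearest cluster lay within 1 kb at 9 of the 70 ends, at a median distance of 3.70 kb, and at most 35.4 kb away.

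Calls were unevenly spread over the ends. There were none at 21 ends, rises only at 24, falls only at 23, and both at 2. The 12 ends with at least 3 calls held 55 of the 102 (53.9%), 40 falls and 15 rises. At least 1 call was held by 70% of the ends and by 71.6% of the inner stretches of 40 kb. At least 3 calls were held by 17.1% of the ends and by 26.4% of the inner stretches, which also held more clusters each.

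The summed tags of each 40 kb end were compared in a fit over 888 windows of the whole genome. Of the 70 ends, 11 (15.7%) were called, 4 higher and 7 lower in the disruptant than in the control (edgeR quasi-likelihood test, adjusted p under 0.05 over all windows). The balance of directions depended on the processing, with 7 higher and 5 lower under library size alone, 5 higher and 3 lower with windows of 20 kb, and 8 higher and 8 lower by DESeq2. The share was 14.8% over all windows tested and 12.4% among inner windows of the same scaffolds. Rises made up 5.71% of the ends, against 7.44% of inner windows and 9.35% of all. Falls made up 10% of the ends, against 5.01% of inner windows and 5.41% of all. These shares rest on few ends, and their differences were not tested. The median log2 fold change of the ends was 0.03, and 56 of the 70 were within 0.5 of 0. Without disruptant replicate 2, disruptant replicate 3, control replicate 1 and control replicate 2 the count of 11 was 7, 5, 6 and 7.

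**Figure D4:**
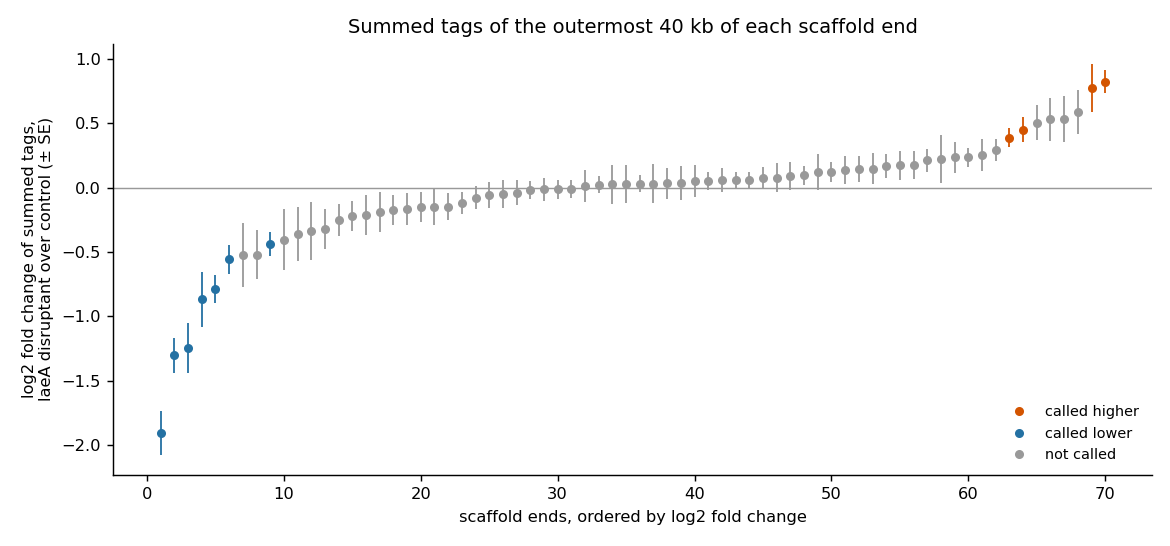
Log2 fold change of the summed tags in the outermost 40 kb of each of the 70 scaffold ends, laeA disruptant over control, with its standard error, in ascending order. The 4 ends called higher are orange and the 7 called lower are blue. Values run from -1.91 to 0.83, and most lie close to 0.

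The deepest fall of a whole end was at the last end of DF126454.1, which held 6 clusters. Its summed level was 24.7, 37.7 and 30.7 CPM in the disruptant libraries, against 108, 128 and 113 CPM in the control libraries (log2 fold change -1.91, SE 0.17; edgeR adjusted p = 0.00056). Of the 6 clusters, 4 fell. They include both near-silent sites given above and a site between them on the minus strand, positions 1122887 to 1122898, with 0, 1 and 2 tags in the disruptant libraries against 55, 63 and 59 in the control libraries (edgeR adjusted p = 0.00104). Its log2 fold change was -5.54, against -4.89 without disruptant replicate 1 and -6.46 without disruptant replicate 3. The fourth fall was on the plus strand 34.8 kb from the end. The cluster nearest the end, 3.22 kb from it, was not called. From 40 to 80 kb along the same scaffold, none of 30 clusters was called (edgeR quasi-likelihood test, adjusted p under 0.05).

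The first end of DF126449.1 fell around a very strong start site. Its summed level was 1143, 1279 and 1372 CPM in the disruptant libraries, against 3623, 2873 and 2857 CPM in the control libraries (log2 fold change -1.30, SE 0.13; edgeR adjusted p = 0.00107). Of its 24 clusters, 7 fell and 18 had a fold change below 0. The 7 lay from 23.5 to 32.3 kb from the end on both strands, and 1 cluster there, on the minus strand at positions 26149 to 26277, held 75.6% of the end's tags in clusters. That cluster had 812, 968 and 1011 CPM in the disruptant libraries against 2947, 2257 and 2274 CPM in the control libraries (log2 fold change -1.42, SE 0.22; edgeR adjusted p = 0.00522).

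On the plus strand of that end, positions 30502 to 30551 fell further. They had 102, 92 and 78 tags in the disruptant libraries and 1438, 2015 and 1154 tags in the control libraries, 14.8-fold lower in the disruptant (log2 fold change -3.88, SE 0.23; edgeR adjusted p = 7.27e-05). Positions 32298 to 32328 of the same strand had 1.27 ± 0.43 CPM in the disruptant and 8.73 ± 1.29 CPM in the control (SD, n = 3 each; log2 fold change -2.77, edgeR adjusted p = 0.00143). From 40 to 80 kb along the scaffold, 3 clusters rose and 1 fell among 33.

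The last end of the same scaffold, DF126449.1, moved the other way by a smaller amount. Its summed level was 844 ± 28.9 CPM in the disruptant and 644 ± 40.5 CPM in the control (SD, n = 3 each; edgeR adjusted p = 0.0162; log2 fold change 0.39 with SE 0.08). The adjusted p was 0.0603, 0.0724 and 0.0715 without disruptant replicate 2, disruptant replicate 3 and control replicate 2. Of 27 clusters 3 rose, and the strongest of them, minus strand, positions 1536655 to 1536689, had 265 ± 69.7 CPM in the disruptant and 79.2 ± 37.1 CPM in the control (log2 fold change 1.74, edgeR adjusted p = 0.0211). Its adjusted p was 0.0641 without disruptant replicate 2, 0.0652 without disruptant replicate 3 and 0.0852 without control replicate 1.

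The first end of DF126467.1 also had 7 falls among 33 clusters, but its summed level was not called (log2 fold change 0.26, edgeR adjusted p = 0.2). All 7 were on the minus strand, between 17 and 26.7 kb from the end, and they formed 3 groups. The fall at 17 kb stood alone, and the others lay from 24.7 kb on. It was called in 1 of the 6 fits that left out 1 library. Its edgeR adjusted p was 0.255 with positions joined at most 50 bp apart. Position 26224 was called in 2 of those 6 fits. The strongest, positions 26509 to 26599, had 499, 398 and 394 tags in the disruptant libraries against 2163, 2135 and 1552 tags in the control libraries. The mean was 28.1 ± 0.63 CPM in the disruptant and 112 ± 11.6 CPM in the control (SD, n = 3 each; log2 fold change -1.99, SE 0.18; edgeR adjusted p = 0.000522). Summed over the 7, the level was 36.5, 38.1 and 37.6 CPM in the disruptant libraries and 157, 151 and 127 CPM in the control libraries, a small part of the end's 3139 CPM over all libraries.

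The last end of DF126452.1 had the most clusters of any end, 61, of which 7 fell and 42 had a fold change below 0. Its summed level was 1725 ± 92.6 CPM in the disruptant and 2335 ± 140 CPM in the control (SD, n = 3 each; edgeR adjusted p = 0.0254; log2 fold change -0.44 with SE 0.10). The window's adjusted p was 0.075, 0.119, 0.0806 and 0.0718 without disruptant replicate 1, disruptant replicate 3, control replicate 1 and control replicate 2, and 0.119 with library size alone as the scaling. The fall with the most tags, plus strand, positions 1470345 to 1470700, lay 2.28 kb from the end. It had 560, 620 and 559 CPM in the disruptant libraries, against 1014, 1127 and 909 CPM in the control libraries (edgeR adjusted p = 0.033; log2 fold change -0.81 with SE 0.19). The libraries did not overlap, but leaving out any library except control replicate 3 raised the adjusted p to between 0.0723 and 0.143, and library size alone gave 0.062. A set of 4 weaker falls lay on the minus strand 35.9 to 37.3 kb from the end. The strongest of these, positions 1436688 to 1436771, had 52.8 ± 13.6 CPM in the disruptant and 149 ± 36.1 CPM in the control (log2 fold change -1.49, edgeR adjusted p = 0.0101), with an adjusted p of 0.0751 without disruptant replicate 3 and 0.0523 without control replicate 1.

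The largest rise of a whole end was at the first end of DF126465.1. Its summed level was 710, 832 and 698 CPM in the disruptant libraries, against 435, 416 and 413 CPM in the control libraries (log2 fold change 0.83, SE 0.09; edgeR adjusted p = 0.00113). Of 24 clusters 6 rose and none fell (edgeR, adjusted p under 0.05). Only the strongest of the rises was called in all 6 fits that left out 1 library. Positions 2889 to 2902 (minus strand) and 8025 to 8050 (plus strand) were each called in 1 of those fits. Most of the added tags lay 38.9 to 39.6 kb from the end, where 4 of the rises sat together. The strongest, minus strand, positions 39146 to 39537, had 6983, 8360 and 5745 tags in the disruptant libraries and 2363, 1966 and 2555 tags in the control libraries. That was 464 ± 106 CPM in the disruptant and 134 ± 28.2 CPM in the control (SD, n = 3 each; log2 fold change 1.79, SE 0.24; edgeR adjusted p = 0.00314). From 40 to 80 kb along the scaffold, 3 of 44 clusters rose and none fell.

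The last end of DF126466.1 had 4 rises among 19 clusters, all on the minus strand. With neighbours within 500 bp counted once, they formed 2 groups. The rises starting at 568816, 568853 and 591782 were called in 2, 1 and 2 of the 6 fits that left out 1 library. The most marked, positions 568904 to 568940, had 43, 60 and 41 tags in the disruptant libraries and 14, 12 and 12 tags in the control libraries (log2 fold change 2.11, SE 0.35; edgeR adjusted p = 0.00781). Its summed level was not called (log2 fold change -0.01, edgeR adjusted p = 0.93), and 1 cluster that was not called held 79.1% of the end's tags in clusters.

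**Figure D5:**
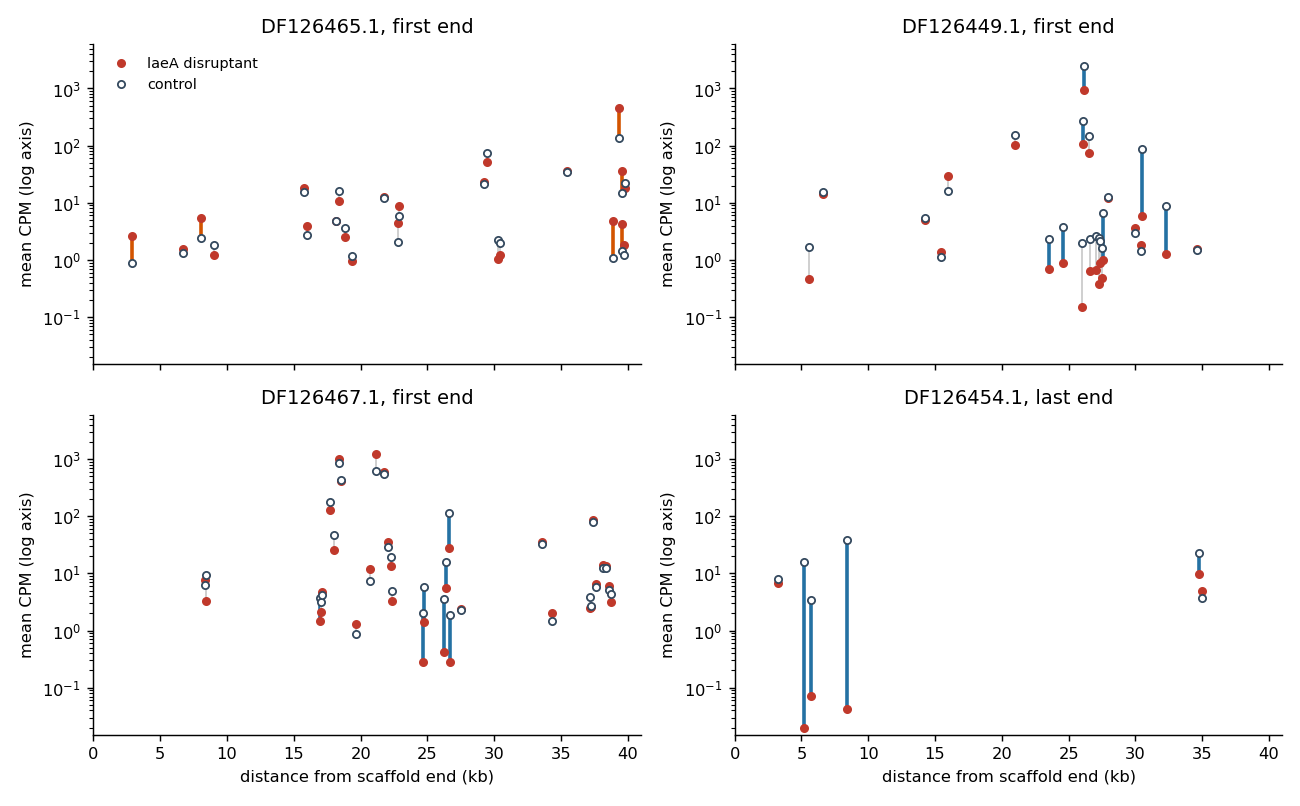
Mean CPM of each cluster in the laeA disruptant (filled red) and in the control (open), on a log axis, against distance from the end in kb, for 4 scaffold ends. Orange lines join the means of clusters called higher, blue lines those called lower, and values under 0.02 CPM are drawn at 0.02. The 7 falls at the first end of DF126449.1 lie from 23.5 to 32.3 kb, and 4 of 6 clusters at the last end of DF126454.1 fell.

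Of the other ends taken for their summed level, the last end of DF126458.1 had 1329 ± 98.7 CPM in the disruptant and 972 ± 78.5 CPM in the control (SD, n = 3 each; log2 fold change 0.45, edgeR adjusted p = 0.0243). Leaving out any library but control replicate 3 raised its adjusted p to between 0.0587 and 0.0803. The first end of DF126466.1 held only 2 clusters and had 21.4 ± 4.13 CPM in the disruptant and 12.5 ± 1.85 CPM in the control (log2 fold change 0.78, edgeR adjusted p = 0.0356). Without disruptant replicate 2, disruptant replicate 3, control replicate 1 and control replicate 2 its adjusted p was 0.0834, 0.082, 0.118 and 0.109. The last end of DF126469.1, also with 2 clusters, had 9.96 ± 2.36 CPM in the disruptant and 23.5 ± 1.64 CPM in the control (log2 fold change -1.24, edgeR adjusted p = 0.00713).

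Ends without a call were common (21 of 70), with 7.32% of the clusters near ends called and 8.11% over the series. The scaffolds given next were not named by the rule. On DF126461.1, 0 of 19 clusters at the first end and 0 of 2 at the last end were called (edgeR, adjusted p under 0.05), and on DF126470.1, 0 of 12 and 1 of 38. At the limit of 40 kb, the clusters just inside were positions 362426 to 362478 of DF126479.1 (1.63 ± 0.76 CPM in the disruptant and 2.08 ± 0.77 CPM in the control) and positions 39913 to 39923 of DF126450.1 (0.626 ± 0.465 CPM in the disruptant and 1.71 ± 1.24 CPM in the control). Just outside were positions 894030 to 894120 of DF126459.1 (28.5 ± 2.70 CPM in the disruptant and 23.5 ± 3.18 CPM in the control) and positions 898940 to 899011 of DF126458.1 (5.25 ± 1.14 CPM in the disruptant and 6.25 ± 1.66 CPM in the control).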

How the data were processed

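CAGE tags were measured in 3 laeA disruptant and 3 control libraries. The authors deposited 1 table of raw tag counts per position and strand, with 8582186 positions. FastQC, BWA and bedtools are named, without versions, per the submitters' processing notes, and the genome build is not given in the sources used here. Neither gene names nor sequence of these scaffolds were used here.

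Tags were summed per cluster, counting every position inside a cluster's span. Clusters and 40 kb windows were tested with edgeR 4.0.16 (R 4.3.3; TMM factors, filterByExpr, quasi-likelihood F test, Benjamini-Hochberg adjustment over all clusters or windows), disruptant over control, with no replicate block. CPM use effective library sizes, 13.7 to 18.5 M, so that 3 tags, the floor, were 0.162 to 0.219 CPM. DESeq2 1.42.0, other scalings, filters, thresholds, cluster definitions, distances and leaving out each library were tried.

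The members and lists were chosen with earlier results of these data known. Named by rule were, among called clusters whose higher mean reached 5 CPM and whose libraries did not overlap, the 6 largest rises and the 6 largest falls. The rule also named the 6 strongest and 4 closest clusters, the 3 ends with most rises and the 3 with most falls, and the 3 largest called rises and falls of windows. Other clusters, among them 36 called clusters at the named ends, were described after their values were seen.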

Additional observations from a re-analysis of the deposited data

How the results depend on the processing

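The share of clusters called near ends stayed close to that of the other clusters of the same scaffolds under the scalings, filters and tests tried. With DESeq2, for example, it was 11.4% near ends and 11.1% elsewhere. Other limits of the group moved it both ways. It was 5.41% near ends and 7.48% elsewhere within 20 kb, and 6.70% near ends and 7.54% elsewhere within 80 kb. On scaffolds of at least 600 kb it was 8.26% near ends and 7.39% elsewhere. The counts themselves moved. Leaving out 1 library gave 39 to 142 calls near ends (10 to 50 higher, 29 to 92 lower), 262 to 681 higher and 304 to 1057 lower among the other clusters, 745 to 2252 in the series, and 5 to 10 end windows (1 to 5 higher, 4 to 6 lower). DESeq2 called 159 clusters near ends, 98 of them lower, with 1098 lower among the other clusters and 8 end windows higher and 8 lower. An adjusted p under 0.01 left 34 near ends (7 higher, 27 lower), 209 higher and 287 lower elsewhere, 655 in all, and 5 end windows (1 higher, 4 lower). Positions of at least 0.5 CPM gave 66 near ends (26 higher), 401 higher and 393 lower elsewhere, and 1056 in all. With at least 10 tags in every library, 38 were lower near ends and 420 elsewhere. Asking also for a log2 change of 1 or more in size left 3 end windows, 0 higher and 3 lower. Windows of 20 kb gave 5 higher and 3 lower, and library size alone gave 7 higher and 5 lower. The cause of these moves was not tested.

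Other limits of the group changed its size by construction. Within 20 kb there were 39 calls (16 higher, 23 lower), within 80 kb 211 (98 higher, 113 lower), and on scaffolds of at least 600 kb 64 (26 higher, 38 lower). The share of tags near ends was 4.27% in the disruptant and 4.14% in the control within 20 kb, 15.04% in the disruptant and 15.04% in the control within 80 kb, and 5.93% in the disruptant and 6.51% in the control on scaffolds of at least 600 kb. Counting called clusters at most 500 bp apart once, an alternative chosen after seeing the data, gave 82.

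The replicate numbers did not pair the libraries. Deviations of same-numbered libraries correlated at 0.45, -0.42 and -0.08, and no library correlated best with its own number. A fit with a replicate block called 56 clusters near ends (15 higher), 320 higher and 414 lower elsewhere, 983 in all, and 5 end windows (1 higher, 4 lower).

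Among named clusters and ends, directions reversed at 4, none of them called by edgeR. Leaving out 1 library, the log2 fold change ran from -0.286 to 0.0392 at DF126468.1 minus strand 572241, from -0.265 to 0.121 at 572340, and from -0.0531 to 0.0329 at the last end of DF126466.1. That end had 0.0502 with library size alone. Position 1 of DF126472.1 had -0.00605 with positions joined at most 50 bp apart. Depth limits the falls to near 0, where 3 tags are 0.162 to 0.219 CPM.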
